A study of Mus musculus with 6 samples.

Results

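The genes described here make, store and break down catecholamines, the hormones of the adrenal medulla. They are the 9 genes Th, Ddc, Dbh, Pnmt, Gch1, Slc18a1, Slc18a2, Cyb561 and Maoa, taken by symbol, and every probe set whose annotation names 1 of them and no other gene was used, which gave 18 probe sets of 44935 in all. RNA of whole adrenal glands was hybridised to 1 Affymetrix mouse array per sample, in 3 samples from 54 h after lights off and 3 from 46 h. All 6 samples came from male mice aged 3 months, of the genotype Per2Brdm1/Cry1-/- on a C57BL6x129Sv background, held for a fortnight in light and dark and then moved to constant darkness; the labels describe these animals as lacking a circadian clock. The labels give no animal for a sample and no pooling, so the spread between arrays of a time point may be technical in part, and glands of wild-type mice are not analysed here. The samples of each time point are called replicates 1, B and C, where 1 is the one with no letter in its label.

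Catecholamines are made from tyrosine in chromaffin cells. Tyrosine hydroxylase (Th) makes L-DOPA in the rate-limiting step, with tetrahydrobiopterin as cofactor. Aromatic L-amino acid decarboxylase (Ddc) then gives dopamine, dopamine beta-hydroxylase (Dbh) gives noradrenaline inside the secretory granule, and phenylethanolamine N-methyltransferase (Pnmt) gives adrenaline. In the adrenal, glucocorticoids from the surrounding cortex are known to sustain Pnmt, and nerve input through cAMP is known to induce Th.

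Promoter sequences bear on these genes because several are known targets of cAMP signalling and immediate early factors. The RefSeq promoter table, build GRCm38.p6, held 7 promoters for 6 of the 9 genes: Th, Dbh, Gch1, Slc18a2 and Maoa with 1 each and Ddc with 2. Each covers 250 bases before the gene's start and 50 after it. The cAMP response element TGACGTCA, which CREB and CREM bind, was present in the promoters of Th and Slc18a2 and in 1.79% of all 32851 promoters of the table. Their promoters are given 5′ to 3′ on the gene's strand because they are the 2 members with this element; Th lies at chr7:142899946-142900245 on the minus strand and Slc18a2 at chr19:59260628-59260927 on the plus strand.
Th: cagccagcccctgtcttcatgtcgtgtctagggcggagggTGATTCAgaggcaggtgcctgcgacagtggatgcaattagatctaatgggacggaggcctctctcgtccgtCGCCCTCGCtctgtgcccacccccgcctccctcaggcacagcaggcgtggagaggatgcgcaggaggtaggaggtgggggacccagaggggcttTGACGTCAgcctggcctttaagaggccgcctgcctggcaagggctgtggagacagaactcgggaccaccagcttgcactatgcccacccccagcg
Slc18a2: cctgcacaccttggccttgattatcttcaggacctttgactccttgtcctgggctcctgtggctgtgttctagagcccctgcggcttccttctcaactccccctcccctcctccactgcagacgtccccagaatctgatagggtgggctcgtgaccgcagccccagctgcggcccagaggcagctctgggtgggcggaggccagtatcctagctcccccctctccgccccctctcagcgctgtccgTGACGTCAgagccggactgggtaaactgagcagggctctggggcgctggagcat
Capitals mark the cAMP response element, the AP-1 site TGANTCA and the EGR1 site GCGNGGGCG, searched on both strands. In Th the cAMP response element lies 45 to 38 bases before the start, an EGR1 match on the reverse strand 139 to 131 bases before it and an AP-1 match 210 to 204 bases before it. In Slc18a2 the cAMP response element spans the start, and no other of these 3 motifs matched. The AP-1 site also matched 1 Ddc promoter. It was in 7.81% of all promoters and the EGR1 site in 5.55%. The E-box CACGTG, which CLOCK and BMAL1 bind, matched 0 of the 7 promoters, against 7.15% of all. The GC box GGGCGG matched Th, Gch1, Slc18a2 and Maoa (35.7% of all promoters), the glucocorticoid receptor palindrome ACANNNTGT the other Ddc promoter (6.85%), and the TATA box TATAAA the promoters of Ddc and Gch1, in each on the reverse strand (13.6%). None of these motifs overlapped in the 7 promoters. A match is a run of letters and was not tested as a binding site.

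No gene of catecholamine synthesis, storage or breakdown changed between 54 h and 46 h past the test used for all probe sets. Values were compared as log2(intensity + 16) in limma, fitted to all 26961 probe sets above a filter on low values, with Benjamini-Hochberg adjustment over all of them and a threshold of 0.05. Of the 18 member probe sets 16 lay above the filter, and 0 of these 16 passed limma, with adjusted p between 0.449 and 0.984, where 31 of all probe sets passed (0.115%). An unadjusted p under 0.05 in limma was found for 1 of the 16, a Dbh probe set that read lower at 54 h, against a share of 5.75% lower among all probe sets. Each gene is read below from its brightest probe set, and intensities of different genes cannot be ranked, since probes differ in how strongly they bind.

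**Figure D1:**
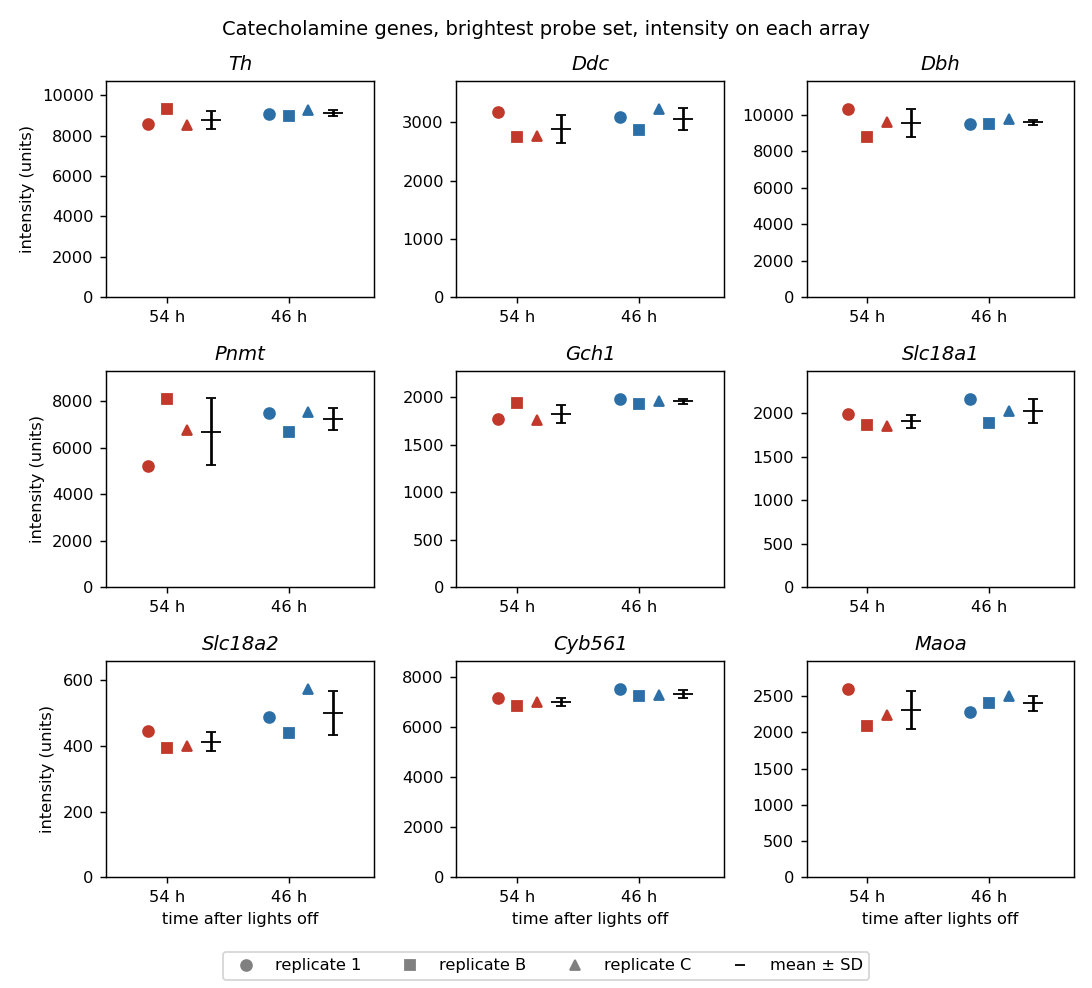
Intensity of the brightest probe set of each of the 9 genes on each array (vertical axes, intensity units, from 0), with 54 h on the left and 46 h on the right of each panel; symbols are replicates 1, B and C, and bars are mean ± SD of 3 arrays. The ranges of the time points overlap in every panel but that of Cyb561, and Pnmt shows the widest spread, from 5200 to 8078 units at 54 h.

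Th, the rate-limiting enzyme, had intensities of 8561, 9298 and 8496 on 54 h replicates 1, B and C, against 9074, 8955 and 9262 on the 46 h replicates in the same order. The highest and the lowest Th readings both belonged to 54 h. The means were 8785 ± 446 units at 54 h and 9097 ± 155 units at 46 h (SD, n = 3 each); the log2 change was -0.05 ± 0.04 SE (adjusted p = 0.744 in limma). Its 95% confidence interval, -0.15 to 0.05, allowed at most a 1.11-fold lower and a 1.03-fold higher level at 54 h on this scale.

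Ddc, which decarboxylates L-DOPA, had intensities of 3165, 2745 and 2754 on 54 h replicates 1, B and C, against 3079, 2859 and 3220 units on the 46 h replicates. 54 h replicate 1 lay within the 46 h range, and 54 h replicates B and C lay below it. The log2 change was -0.08 ± 0.08 SE. A dimmer Ddc probe set, near the filter at 164 ± 13.8 units at 54 h and 177 ± 19.7 units at 46 h (SD, n = 3 each), gave -0.10 ± 0.13 SE.

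Dbh, the granule enzyme that makes noradrenaline, had 3 probe sets that did not rank the arrays alike. The brightest had intensities of 10309, 8798 and 9595 on 54 h replicates 1, B and C, against 9485, 9518 and 9753 units on the 46 h replicates. Here 54 h replicates 1 and B were the highest and the lowest of the 6 arrays, and the log2 change was -0.01 ± 0.05 SE. The second read 7178, 7426 and 6869 units at 54 h, against 7973, 7323 and 8417 units at 46 h. Its 54 h arrays 1 and C were below all 46 h arrays, and it gave the smallest unadjusted p of the members, at -0.14 ± 0.06 SE on the log2 scale (adjusted p = 0.449 in limma). The third gave -0.06 ± 0.05 SE. The brightest of the 3 has the suffix x, which Affymetrix gives to probe sets that may bind other transcripts. Its change was 0.05 without 54 h replicate B and 0.0069 without 46 h replicate C, so its sign rested on single arrays.

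Pnmt, the adrenaline-forming enzyme, varied most over the 54 h arrays among the 9 brightest probe sets. Its brightest probe set had intensities of 5200, 8078 and 6765 on 54 h replicates 1, B and C, against 7502, 6670 and 7515 units on the 46 h replicates. The lowest and the highest of the 6 readings thus both came from 54 h. The SD was 1441 units at 54 h and 484 units at 46 h (n = 3 each), and the log2 change was -0.13 ± 0.13 SE. A second probe set ordered the 54 h arrays the same way, at 3977, 4817 and 4455 units for replicates 1, B and C, against 4837, 4119 and 4416 units at 46 h, and gave -0.01 ± 0.08 SE. Without 54 h replicate 1 the brightest probe set gave 0.03 ± 0.08 SE. The third Pnmt probe set read 12.0 to 61.7 units over the 6 arrays, under the filter.

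Gch1, GTP cyclohydrolase, catalyses the first step of tetrahydrobiopterin synthesis. It had intensities of 1775, 1937 and 1761 on 54 h replicates 1, B and C, against 1982, 1926 and 1965 units on the 46 h replicates. 54 h replicate B lay inside the 46 h range, and 54 h replicates 1 and C were below it. The log2 change was -0.10 ± 0.07 SE, and the second Gch1 probe set gave -0.14 ± 0.08 SE.

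Catecholamines are loaded into granules by the vesicular monoamine transporters, of which Slc18a1 encodes the form typical of endocrine cells and Slc18a2 the form typical of neurons. Slc18a1 had intensities of 1997, 1871 and 1857 on 54 h replicates 1, B and C, against 2164, 1890 and 2033 units on the 46 h replicates. The 54 h arrays B and C were below all 46 h arrays, and the log2 change was -0.09 ± 0.08 SE. A second Slc18a1 probe set read 295, 146 and 321 units at 54 h, against 210, 307 and 138 units at 46 h. It ran against the brightest, at 0.20 ± 0.32 SE on the log2 scale, and its arrays spread more widely. The third read 15.8 to 30.2 units, under the filter.

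Slc18a2, read from its 1 probe set, had intensities of 446, 393 and 400 on 54 h replicates 1, B and C, against 489, 439 and 573 units on the 46 h replicates. 54 h replicate 1 overlapped the 46 h range by 46 h replicate B. The means were 413 ± 28.9 units at 54 h and 500 ± 67.6 units at 46 h (SD, n = 3 each); the log2 change was -0.26 ± 0.12 SE (adjusted p = 0.523 in limma), with a 95% confidence interval of -0.54 to 0.02. Over the 6 arrays this was the lowest value of the 9 genes, but without 54 h replicate B it was -0.23 and that of Pnmt was lower, at -0.28. Without 46 h replicate C the Slc18a2 value was -0.16.

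Cyb561, the granule membrane cytochrome that carries electrons inward to regenerate the ascorbate used by Dbh, had the smallest SE of the 9. It had intensities of 7141, 6844 and 6982 on 54 h replicates 1, B and C, against 7503, 7212 and 7248 units on the 46 h replicates. Every 54 h array was below every 46 h array, which held for 1 of the 16 member probe sets and for 9.05% of all probe sets in that direction. The log2 change was -0.07 ± 0.04 SE (adjusted p = 0.618 in limma).

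Maoa, the mitochondrial monoamine oxidase that oxidises catecholamines in the cytosol, is the 1 breakdown enzyme among the members and is also expressed in many other cell types. It had intensities of 2598, 2090 and 2239 on 54 h replicates 1, B and C, against 2289, 2408 and 2503 units on the 46 h replicates. As with the brightest Dbh probe set, 54 h replicates 1 and B were the highest and the lowest of the 6. The log2 change was -0.06 ± 0.09 SE, and 0.0083 without 54 h replicate B. A dimmer Maoa probe set read 200, 195 and 169 units at 54 h, against 228, 195 and 268 units at 46 h, with -0.26 ± 0.14 SE.

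**Figure D2:**
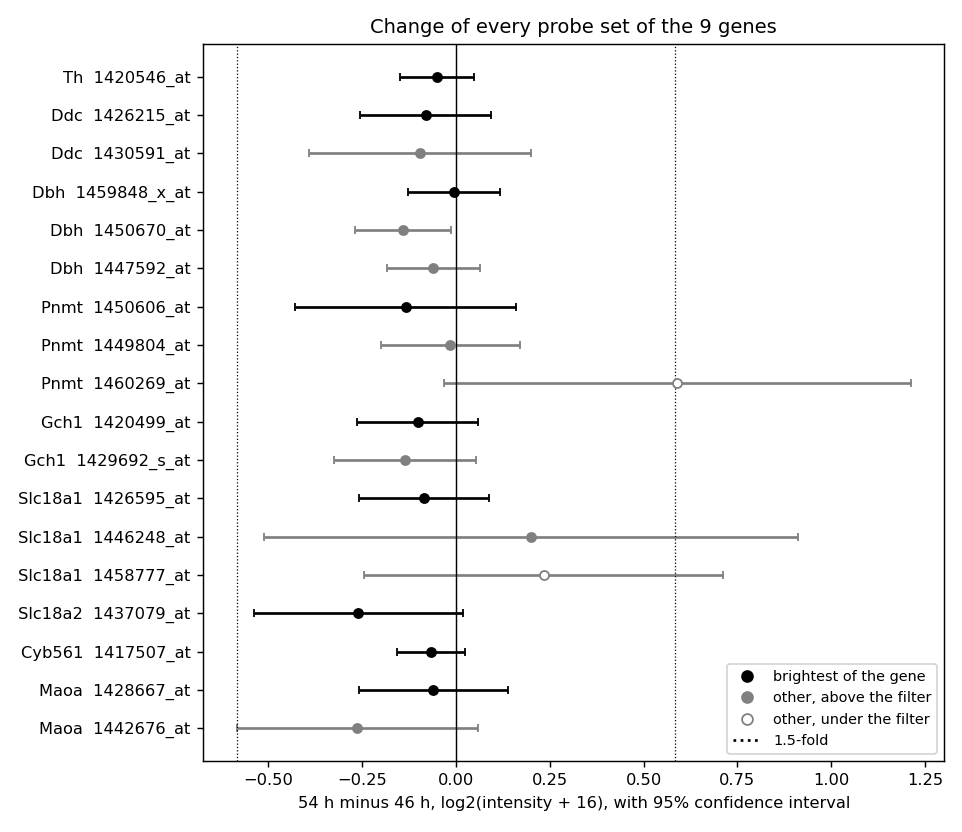
Log2 change, 54 h minus 46 h, with the 95% confidence interval from limma for all 18 probe sets of the 9 genes; black marks the brightest probe set of a gene, grey the others, open symbols the 2 under the filter (fitted without the filter), and dotted lines a 1.5-fold change. The black intervals all lie between the dotted lines, and the dim probe sets of Slc18a1 and Pnmt have the widest.

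The changes were small and mostly had one sign. Read from the brightest probe set, 9 of 9 genes were lower at 54 h, from -0.26 to -0.01 with a median of -0.08, while 56.7% of all 13780 genes read in that way were lower, with a median of -0.02. The count lower was 7 of 9 without 54 h replicate B, and 8 of 9 without 54 h replicate 1 or without 46 h replicate C. Of the 16 probe sets above the filter, 15 were lower. A 1.5-fold difference in either direction lay outside the 95% interval of each of the 9 genes, and a 1.25-fold difference lay outside that of 7; the other 2 were Pnmt and Slc18a2. The 1 probe set of the 16 that was higher belongs to Slc18a1. It follows that the other 5 of the 6 genes with more than 1 probe set above the filter had the same sign in all of them. With arrays centred on their medians the members' median was -0.05 with 8 of 9 lower (Dbh higher), beside a median of 0.0067 for all probe sets.

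**Figure D3:**
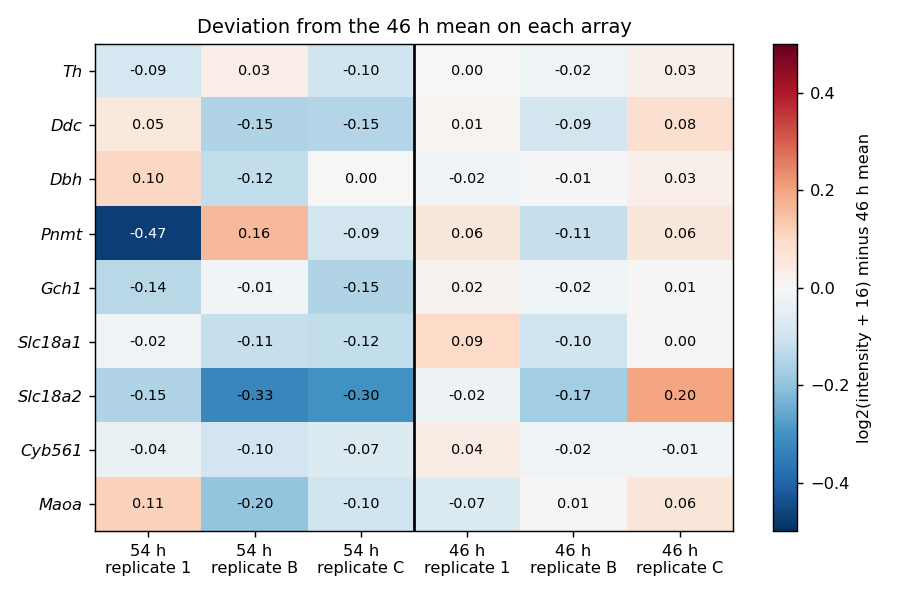
Deviation of each gene's brightest probe set from its own 46 h mean, log2(intensity + 16), on each array, 54 h arrays left of the line and 46 h arrays right; red is above and blue below the 46 h mean. On 54 h replicate 1 Pnmt is at -0.47 while Maoa is at 0.11, and on 54 h replicate B Pnmt is at 0.16 while Maoa is at -0.20.

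The 3 arrays of 54 h did not deviate alike from gene to gene. Relative to their 46 h means, Pnmt, Th and Gch1 were highest on 54 h replicate B, at 0.16, 0.03 and -0.01. On that same array Ddc stood at -0.15, Dbh at -0.12, Maoa at -0.20, Slc18a2 at -0.33 and Cyb561 at -0.10, each gene's lowest deviation of the 3 arrays of 54 h. On 54 h replicate 1 Pnmt stood at -0.47, whereas Ddc, Dbh and Maoa were at 0.05, 0.10 and 0.11. This division was noticed in the values and was not tested. Set against their own time's mean, 3, 6 and 7 of the 9 genes were lower on 54 h replicates 1, B and C, against 4, 8 and 1 of the 9 on the 46 h replicates.

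For the cAMP response element, AP-1, EGR1 and glucocorticoid receptor motifs, 9 binding factors were chosen after these values were seen. The choice was partial, and CLOCK and BMAL1 were not among them. Of the 9 factors, 8 had a probe set above the filter. Of these 7 were higher and 1 lower at 54 h, and 0 passed limma. An unadjusted p under 0.05 was found for 4, all higher, against 4.34% of all probe sets in that direction, and for 4 every 54 h array was above every 46 h array, against 6.48% of all. Egr1, an immediate early factor known to act on the Pnmt promoter in the rat, had intensities of 1782, 6630 and 4618 on 54 h replicates 1, B and C, against 2540, 2499 and 2723 units on the 46 h replicates. Its log2 change was 0.55 ± 0.37 SE (adjusted p = 0.658 in limma), and its ranges overlapped between the times. Egr1 was lowest on 54 h replicate 1 and highest on 54 h replicate B, as Pnmt was. The adrenal cortex genes Nr5a1, Mrap, Cyp11b2, Mc2r and Fdx1 were also lowest and highest on these 2 arrays. No promoter of Pnmt was searched, and a link between Egr1 and Pnmt was not tested. Fos, a subunit of AP-1, read 494, 1416 and 1030 units at 54 h, against 316, 221 and 315 units at 46 h, and Crem, whose products bind the cAMP response element, read 1694, 2330 and 2029 units, against 1220, 647 and 1190 units. All 54 h arrays were above all 46 h arrays for both, with log2 changes of 1.62 ± 0.32 SE for Fos and 1.02 ± 0.22 SE for Crem (adjusted p = 0.117 and 0.156 in limma). Creb1, which encodes CREB, gave 0.11 ± 0.09 SE, also without overlap. Of the other AP-1 subunit genes chosen, Junb gave 1.55 ± 0.31 SE, Fosb 0.42 ± 0.18 and Jun 0.05 ± 0.05. The ranges of Fosb and Jun overlapped between the times. Th and Slc18a2, which carry the cAMP response element, stood at -0.05 and -0.26. Whether any of these factors acted on them was not tested. The glucocorticoid receptor gene Nr3c1 read 925, 628 and 650 units at 54 h, against 728, 663 and 803 units at 46 h.

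Other genes of the pathway also stayed short of the test. Of 40 genes listed for their role, 32 had a probe set, 27 lay above the filter and 0 of those passed limma; 16 were lower and 11 higher at 54 h. An unadjusted p under 0.05 was reached by 3 of the 27, all lower, against 5.75% of all probe sets in that direction. These 3 encode parts of the vacuolar proton pump, which builds the granule's proton gradient that drives amine uptake and also serves other acidic organelles. Atp6v1b2 read 4065 ± 207 units at 54 h and 4611 ± 132 units at 46 h (SD, n = 3 each); the log2 change was -0.18 ± 0.06 SE. Atp6v1a gave -0.18 ± 0.06 SE and the accessory protein gene Atp6ap2 -0.14 ± 0.04 SE, with limma adjusted p of 0.327 to 0.366 for the 3, and they are also the 3 of the 27 whose 54 h arrays were below all 46 h arrays, against 9.05% of all probe sets. The pump genes Atp6v0a1 and Atp6ap1 gave -0.04 and 0.03.

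In the supply of tetrahydrobiopterin, 2 of 5 genes were lower and 3 higher at 54 h, with 0 past limma. Pts, the synthase after Gch1, had -0.16 ± 0.08 SE, Pcbd1, which helps to recycle the cofactor, -0.19 ± 0.13, its partner Qdpr 0.05 ± 0.05, the sepiapterin reductase gene Spr 0.0035 ± 0.11, and Gchfr, whose product binds and regulates GTP cyclohydrolase, 0.08 ± 0.10. Of the 4 breakdown and conjugation genes 2 were lower and 2 higher. Maob, the other monoamine oxidase, read 1045 ± 76.8 units at 54 h and 884 ± 101 units at 46 h (SD, n = 3 each). Its log2 change of 0.24 ± 0.11 SE had the opposite sign to that of Maoa (adjusted p = 0.502 in limma). The aldehyde dehydrogenase gene Aldh2 gave -0.07 ± 0.05 SE, the aldehyde reductase gene Akr1a1 -0.03 ± 0.03 and the sulfotransferase gene Sult1a1 0.12 ± 0.12. The amino acid transporter genes Slc7a5 and Slc7a8 gave -0.0078 ± 0.12 SE and -0.10 ± 0.18. The noradrenaline transporter gene Slc6a2 gave -0.08 ± 0.14 SE and the plasma membrane monoamine transporter gene Slc29a4 -0.10 ± 0.07. For ascorbate and copper 1 of 3 genes was lower and 2 were higher: the copper chaperone gene Atox1 gave -0.16 ± 0.08 SE, the ascorbate transporter gene Slc23a2 0.25 ± 0.12 and the copper pump gene Atp7a, which supplies the metal of Dbh, 0.17 ± 0.10. Of 6 receptor genes 3 were lower and 3 higher. Chrna3, a subunit of the nicotinic receptor through which splanchnic nerves drive chromaffin cells, gave -0.23 ± 0.13 SE, while the other nicotinic subunit genes gave -0.17 ± 0.14 for Chrna7, 0.08 ± 0.13 for Chrnb2 and 0.17 ± 0.13 for Chrnb4. The receptor gene for the peptide PACAP, Adcyap1r1, gave -0.18 ± 0.11 SE and the alpha-2 adrenergic receptor gene Adra2c, a brake on release, 0.16 ± 0.11. Adra2c was the 1 gene of the 27 whose 54 h arrays were above all 46 h arrays, against 6.48% of all probe sets.

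The medulla as a whole was read from 19 chromaffin markers outside the 9 genes, of which 18 had a probe set and all 18 lay above the filter. Of these, 13 were lower and 5 higher at 54 h, with a median of -0.10; 0 passed limma, 7 of the 18 had an unadjusted p under 0.05, all lower, against 5.75% of all probe sets. For 8 of the 18 the 54 h arrays lay below all 46 h arrays, against 9.05% of all. Their summed intensity came to 72764, 74791 and 71693 units for 54 h replicates 1, B and C, against 79463, 75344 and 80818 units on the 46 h replicates. All 54 h sums were below all 46 h sums, the nearest being 54 h replicate B and 46 h replicate B. Such sums, here and below, rest most on their brightest genes. Here these were Chgb, Chga, Scg2 and Npy, at 11302 to 14332 units on average. Whether probe sets this bright still resolve a change was not tested. The lowest log2 change was that of Uchl1, a neuronal ubiquitin hydrolase, with 1913 ± 103 units at 54 h and 2493 ± 25.9 units at 46 h (SD, n = 3 each); the log2 change was -0.38 ± 0.07 SE (adjusted p = 0.0951 in limma). The granin family gene Scg5 gave -0.28 ± 0.09 SE, the proprotein convertase inhibitor gene Pcsk1n -0.25 ± 0.07, the transcription factor gene Hand2 -0.18 ± 0.06 and the granin genes Scg2 and Chga -0.13 ± 0.04 and -0.11 ± 0.04. In contrast Penk, the enkephalin precursor, gave 0.16 ± 0.17 SE and Phox2a, a factor known to activate Dbh, 0.11 ± 0.12. In whole glands, fewer chromaffin cells, less RNA per chromaffin cell and more RNA of other cells cannot be told apart.

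The 9 catecholamine genes summed to 41192, 42055 and 40849 units for 54 h replicates 1, B and C, against 43566, 41877 and 44069 units on the 46 h replicates. Here 54 h replicate B overlapped the 46 h range by 46 h replicate B. Markers of other cells also differed between the arrays, and their part in the members' values was not tested. Of 12 cortex markers 11 had a probe set; all 11 lay above the filter and were lower at 54 h, with a median of -0.06 and 0 past limma (0 at an unadjusted p of 0.05). Of these, Star, Fdx1, Hsd3b1, Cyp11a1, Scarb1, Cyp21a1 and Cyp11b1 averaged 14903 to 17177 units, near the highest value on any array, 17879 units, and whether probe sets this bright still resolve a change was not tested. The dimmer Cyp11b2, Mc2r, Mrap and Nr5a1 gave -0.20 to -0.0025. Among the 9 catecholamine genes the brightest, Dbh, averaged 9576 units. The mean deviation of the 11 cortex markers from 46 h was -0.18, 0.05 and -0.06 on 54 h replicates 1, B and C. It was lowest on the array where Pnmt was lowest. The summed intensity of the cortex markers was 130903 to 146790 units at 54 h, against 139051 to 147835 units at 46 h. Liver markers were higher at 54 h in 8 of 8 above the filter, with a median of 1.04 and 2 past limma (Serpina1b and Cyp3a11), and their sum was 8384 to 12511 units at 54 h, against 3855 to 6021 units at 46 h. Of 6 adipose markers 4 were higher, with 0 past limma and 3 at an unadjusted p under 0.05 (4.34% of all probe sets were higher at that level), and sums of 27543 to 34857 units at 54 h, against 26004 to 32257 units at 46 h. Of 5 kidney markers with a probe set 4 were under the filter, and the 4 glial markers gave a median of -0.07, with 0 past limma.

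**Figure D4:**
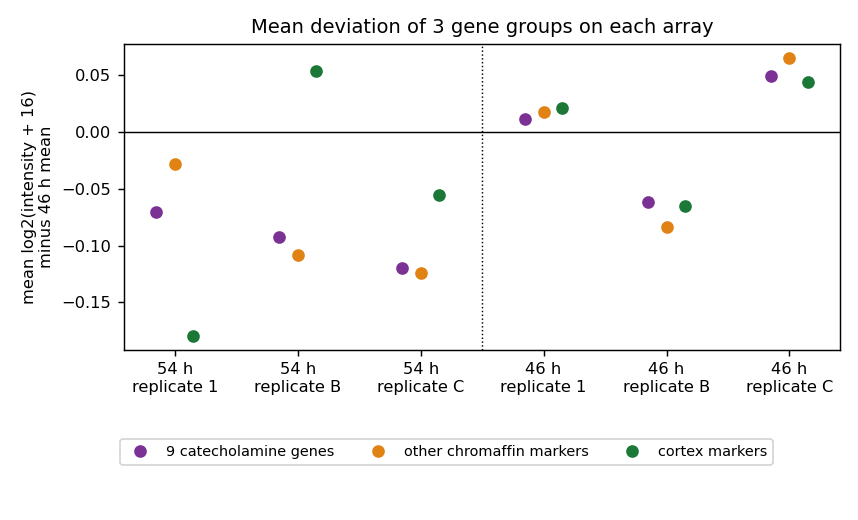
Mean over genes of log2(intensity + 16) minus the 46 h mean, on each array, for the 9 catecholamine genes, 18 other chromaffin markers and 11 cortex markers, 54 h arrays on the left. The catecholamine genes are at -0.07, -0.09 and -0.12 on 54 h replicates 1, B and C, close to the other chromaffin markers, while the cortex markers range from -0.18 to 0.05 over the same arrays.

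The mean deviation of the 9 genes on the 54 h replicates 1, B and C was -0.07, -0.09 and -0.12, against 0.01, -0.06 and 0.05 on the 46 h replicates. The gap between 54 h replicate 1 and 46 h replicate B was thus small beside the spread within 46 h. The 5 other genes whose profile over the 6 arrays correlated best with that mean were Fbxl14, Wfdc6a, Pcdh15, Plppr3 and Chn2, with Pearson r of 0.993 to 0.998. These are the 5 highest values over 6 arrays among the 13780 genes less the 9 members. None of the 5 genes is on the lists of chromaffin markers used here.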

How the data were processed

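Total RNA of whole adrenal glands was hybridised to 6 Affymetrix arrays, 3 per time point. The values are intensities on a linear scale, 1 per probe set and array, as the authors deposited them for the whole series; the summarisation, background correction and normalization are not given in the sources used here, so their effect on the measurements is unknown. The array medians of log2 values differed by 0.0728, and no further normalization was applied. The number of arrays limits the precision. Of 45001 probe sets, 64 controls, 1 without values and 1 with a damaged value were left out; of the other 44935, 34848 name exactly 1 gene in the platform annotation, 928 several and 9159 none. Probe sets whose mean of log2(intensity + 16) exceeded the 40th percentile (139 units) were tested two-sided with limma 3.58.1 (lmFit and eBayes, with a trend on intensity) in R 4.3.3. For 3 arrays a side, exact permutation could reach no p below 0.1 and was not used. Fold changes on this scale understate those of dim probe sets. Changes of probe sets under the filter come from the same fit without it. The procedure was tested on simulated data. Promoters were searched in Python 3.11.15, and plots made with matplotlib 3.10.9.

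The members, the other lists and the alternatives were chosen with earlier results of these data known, and the factors binding the motifs after the members' values were seen. Named are all members, pathway genes by role or with an unadjusted p under 0.05, markers needed to describe a list, and the 5 genes most like the members' mean profile.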

Additional observations from a re-analysis of the deposited data

How the results depend on the processing

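In 15 of 16 alternative fits 0 member probe sets passed limma, of 13 tested with the filter at the 60th percentile, 18 with no filter and 16 otherwise; 1 passed with array weights, the second Dbh probe set (-0.18 ± 0.04 SE, limma adjusted p = 0.0196). Those weights were 4.26 for 54 h replicate C and 2.86 for 46 h replicate 1 and under 1 for the others, and that fit gave 3466 of all probe sets. The members' median log2 change was -0.13 with array weights and lay between -0.11 and -0.05 in the other alternatives. The median of all probe sets reversed to 0.0067 with arrays centred on their medians. Over 153 values of single members under alternatives, 144 kept their sign. Many of these could not reverse. Both changes of the filter, the fit without an intensity trend, the robust fit and the replicate block leave a member's log2 change as it was. The mean over all probe sets does so for genes with 1 probe set. Dbh reversed to 0.0010 with quantile normalization, 0.021 with centring and 0.011 with array weights, and ran from -0.061 to 0.053 when each array was left out. When each array was left out Pnmt ran from -0.28 to 0.034 and Maoa from -0.15 to 0.0083, Th from -0.093 to -0.028, Ddc from -0.15 to -0.042, Gch1 from -0.15 to -0.077, Slc18a1 from -0.14 to -0.039, Slc18a2 from -0.35 to -0.16 and Cyb561 from -0.082 to -0.049. With the mean over all probe sets of a gene, which includes dim ones, Pnmt gave 0.15 and Slc18a1 0.12. The count of 31 probe sets became 47 with quantile normalization, 50 with centring, 48 with a filter at the 60th percentile, 3 without an intensity trend and 61 with a robust fit. Leaving out 46 h replicate 1 gave 2, as did leaving out 54 h replicate C; the count was 18 without 46 h replicate B, 61 without 54 h replicate B and 66 without 54 h replicate 1. With the replicate block it was 45, with 0 member probe sets. Arrays of the same replicate label did not deviate alike: their deviations from the time means correlated at -0.060, -0.41 and -0.49. Of the 3 arrays of 54 h, 0 correlated best with its own label at 46 h. Deviations within a time cancel over its 3 arrays, so this check cannot show whether a label marks arrays handled together. The causes of the differences between the alternatives were not tested. Dim probe sets near the filter carry the widest errors.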
